A study of Mus musculus with 8 samples.

Results

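Late G1 and asynchronous populations of mouse pluripotent stem cells were compared. The late G1 cells were collected 3 h after release from a mitotic arrest, and the asynchronous cells came from a cycling population. The 4 libraries, 2 late G1 and 2 asynchronous, were chosen by their labels alone and were part of a series of 8 that also held 2 mitotic and 2 early G1 libraries. All genes were considered, and 19101 of 54838 had enough counts to be tested. The cells were male mouse induced pluripotent stem cells (iPSCs), somatic cells reprogrammed to a state like that of embryonic stem cells, and the sample labels call them ESC. The late G1 cells had been passaged from feeders to gelatin, kept in 200 ng/ml nocodazole for 6 h, collected by shaking rounded cells off the plate, washed, and replated on gelatin for 3 h. The asynchronous cells were grown on irradiated feeder cells in medium with 15% serum, 1000 U/ml LIF, a MEK inhibitor at 1 µM and a GSK3 inhibitor at 3 µM, per the labels' protocols. That same medium was given for the iPSCs as a whole. Whether the medium used for release held the inhibitors, and which clone each replicate number marks, is not stated in the labels. The labels name 2 independent iPSC clones as the biological replicates, and p-values here rest on the spread within pairs of samples, pooled over all states. A fit that leaves out a library of a pair takes no spread from that pair. The p-values of such a fit rest on the spread of the other states. Passage history, the drug, the wash and the presence of feeders all differed between the states together with the cell cycle, and these cannot be told apart here. In RNA from bulk cells, fewer cells of a type and less RNA per cell of that type cannot be told apart either.

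Nocodazole keeps tubulin from forming microtubules, and cells without a spindle stop in mitosis until it is washed out. After release a cell divides and enters G1, the phase in which origins of replication are licensed by loading MCM helicases and in which E2F factors switch on the genes of DNA synthesis. Pluripotent cells are known for a short G1 phase and for cyclin E activity that varies little over the cycle. Irradiated feeder cells are usually embryonic fibroblasts that no longer divide, and they contribute matrix transcripts to any RNA that is prepared from a culture with them.

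Total counts were 21688413 and 21182167 in the late G1 libraries and 24188305 and 20410621 in the asynchronous libraries, and 3 counts, used as a floor, made 0.116 to 0.152 CPM across the series. Levels are CPM, counts scaled by TMM to a common library size, and they are not divided by gene length. The late G1 libraries were nearly alike, with a biological coefficient of variation of 0.0417, whereas that of the asynchronous libraries was 0.292. Among 12254 well expressed genes, 14 differed by more than 2-fold between the late G1 replicates and 821 between the asynchronous replicates. The first principal component of all 8 libraries, with 59.69% of the variance, placed late G1 at -49.28 and -49.98 and asynchronous cells at 95.35 and 120.8.

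Nearly as many genes were higher as were lower in late G1. Of the 19101 genes tested, 4334 (22.7%) were called higher and 4971 (26.0%) were called lower, 48.7% in all (edgeR quasi-likelihood test, Benjamini-Hochberg adjusted p under 0.05, which is what called means throughout). The median log2 change of late G1 over asynchronous cells was -0.03. Both late G1 libraries lay above both asynchronous ones in 36.8% of the genes tested and below them in 38.1%. Changes of at least 2-fold were called for 2181 genes in the higher direction (11.4%) and 3157 in the lower (16.5%), and changes of at least 8-fold for 191 (1.0%) and 466 (2.44%). The large falls were mostly falls to low levels. Of the 3157 genes at least 2-fold lower, 746 (23.6%) still had 10 CPM or more in both late G1 libraries, and of the 466 genes at least 8-fold lower 11 (2.36%) did. Of the 2181 genes at least 2-fold higher, 666 (30.5%) had 10 CPM or more in both asynchronous libraries, and of the 191 at least 8-fold higher none did. With the 4 libraries fitted alone, 2854 genes were called higher and 3615 lower.

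Transcripts of matrix-making fibroblasts were the most depleted group in late G1. Of 27 tested members of the feeder fibroblast list, 24 were called lower and 0 higher, with a median log2 change of -4.77, or -4.52 with the 2 members that had no counts in late G1 set at the floor. The type I collagen gene Col1a1 (ENSMUSG00000001506, chr11:94936224-94953042, plus strand) had 7.62 and 5.96 CPM in late G1 against 509 and 554 CPM in asynchronous cells (log2 change -6.29 ± 0.22, adjusted p = 9.61e-06). Col3a1, the chain of type III collagen, had 0.319 and 0.328 CPM in late G1 against 114 and 90.9 CPM in asynchronous cells (log2 change -8.28 ± 0.40, adjusted p = 2.19e-05). Postn, the matrix protein periostin, had 0.456 and 0.375 CPM in late G1 against 101 and 83.6 CPM in asynchronous cells (log2 change -7.78 ± 0.23, adjusted p = 3.11e-06). In each of these genes both late G1 libraries lay far below both asynchronous ones. Fbln2, the matrix protein fibulin-2, fell by 4.77 on the log2 scale (adjusted p = 3.11e-06). The 8 collagen genes of the list summed to 41.9 and 34.5 CPM in late G1 against 1160 and 1140 CPM in asynchronous cells, 3.32% of the asynchronous sum. The 24 members other than Fn1, Sparc and Vim summed to 145 and 139 CPM in late G1 against 1940 and 1930 CPM in asynchronous cells (7.34%).

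A residue of these transcripts remained. Col1a1 kept 7.62 and 5.96 CPM in late G1, above the floor, while Ccl7, a chemokine, and Twist2, a mesenchymal transcription factor, had 0 counts in both late G1 libraries and were at least 9.99-fold and at least 4.75-fold lower, taking 3 counts per library as the floor. The members that did not pass the test were Sparc, Vim and Twist1. Sparc and Vim encode a matrix protein and an intermediate filament that pluripotent cells also express. Vim had 236 and 233 CPM in late G1 against 227 and 355 CPM in asynchronous cells, and the log2 change of -0.31 ± 0.20 was not called (adjusted p = 0.22). Fn1, fibronectin, was called lower with a smaller change (log2 change -1.04 ± 0.25, adjusted p = 0.00952). The Fn1 call was lost without late G1 replicate 1 or late G1 replicate 2 (adjusted p = 0.0509 and 0.0766), and over all alternatives its adjusted p ran from 1.38e-12 to 0.0766. Sparc was called without asynchronous replicate 1 (log2 change -0.427, adjusted p = 0.00154), and over all alternatives its adjusted p ran from 2.61e-08 to 0.721. Vim was called without asynchronous replicate 1 (log2 change -0.595, adjusted p = 0.00116), and over all alternatives its adjusted p ran from 9.96e-12 to 0.783. The part of feeder RNA in the falls of the lists described below was not tested.

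Markers of other cell types that a feeder culture can hold were mixed. On the macrophage list, 0 of 15 tested members were called higher in late G1 and 8 were called lower, with a median log2 change of -1.37. The other 7 were not called. All 15 together summed to 279.5 and 269.5 CPM in late G1 against 250.4 and 322.0 CPM in asynchronous cells, so the list sum did not fall clearly. Lyz2, the lysozyme of myeloid cells, had 0 counts in both late G1 libraries against 9.44 and 14.7 CPM in asynchronous cells and was at least 86.8-fold lower. The complement genes C1qb (adjusted p = 0.000628) and C1qc (adjusted p = 0.000549) were called lower, C1qb with 0.0456 and 0.235 CPM in late G1 against 2.99 and 4.41 CPM in asynchronous cells and C1qc with 0 and 0.0938 CPM in late G1 against 1.99 and 2.28 CPM in asynchronous cells. The macrophage list had a median of -3.13 without late G1 replicate 2. C1qa, C1qb, C1qc and Lyz2 summed to 0.0456 and 0.516 CPM in late G1 against 16.4 and 26.1 CPM in asynchronous cells. In the mitotic libraries these genes summed to 45.7 and 47.4 CPM. Among 7 endothelial genes 2 were higher and 2 lower, shares near those over all genes tested, with a median of -0.26. Kdr, the VEGF receptor, which is also a marker of early mesoderm, was higher (7.89 and 5.63 CPM in late G1 against 0.637 and 0.608 CPM in asynchronous cells, log2 change 3.43 ± 0.29, adjusted p = 0.000134), Tek was higher by 0.75 (adjusted p = 0.0464, and 0.0633 to 0.273 without any single library other than asynchronous replicate 1, without which its change was 1.17), and Vwf and Egfl7 were lower (-2.93 and -1.14 on the log2 scale). The endothelial list had a median of 0.155 without asynchronous replicate 1 and -0.479 without asynchronous replicate 2. On the smooth and striated muscle list 1 of 10 was higher and 4 were lower, with a median of -0.77, and the falls included the actin genes Acta1 (-3.11) and Acta2 (-4.47) and the filament gene Des (-1.85).

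**Figure D1:**
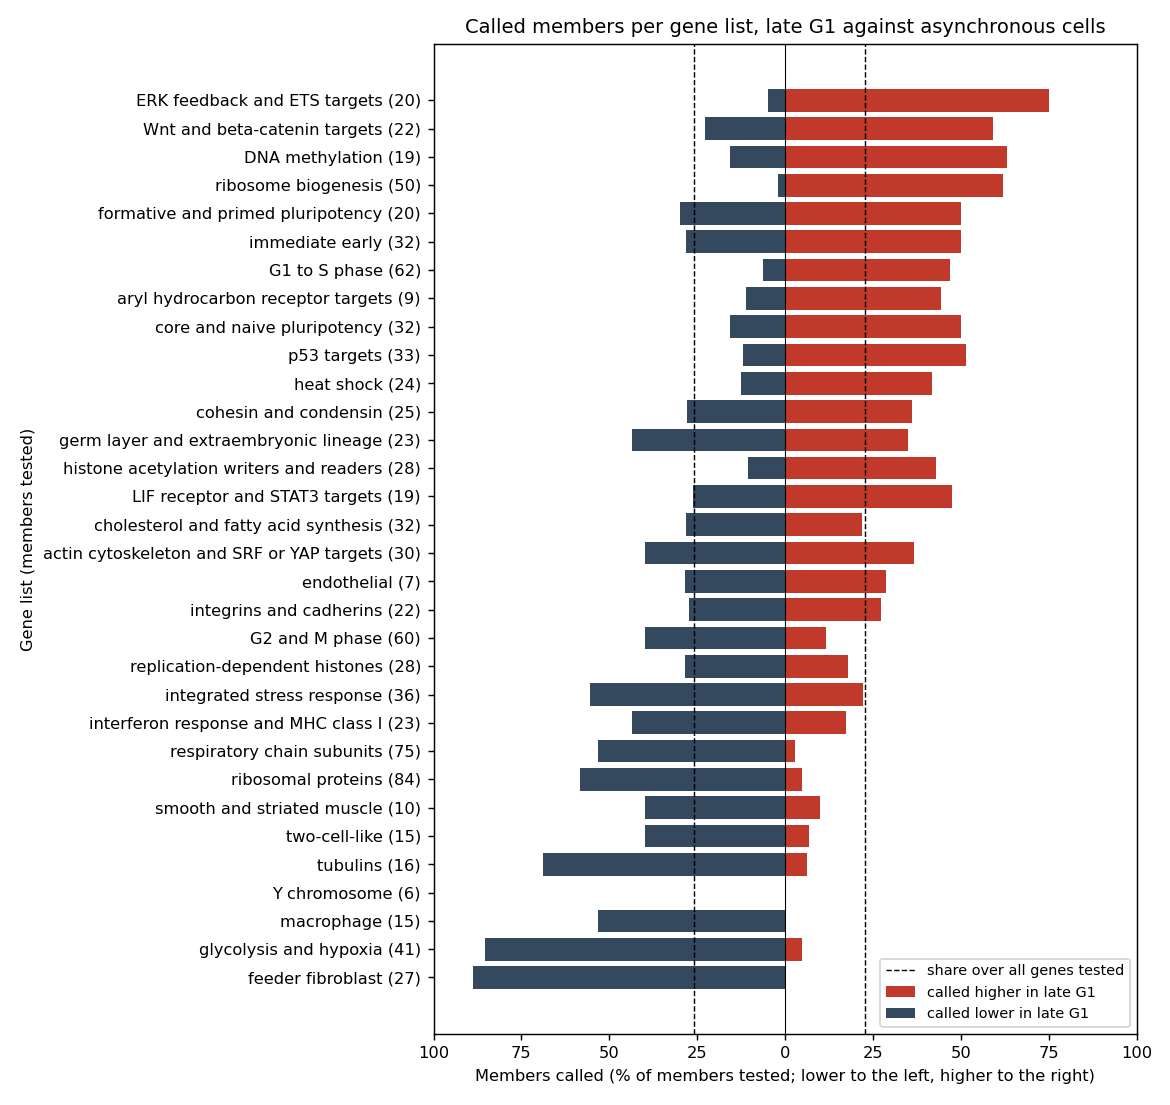
The share of tested members called higher in late G1 (red, to the right) and called lower (dark, to the left) for each gene list, in percent of the members tested, whose number stands beside the list's name. The dashed lines mark the shares over all 19101 genes, 22.7% higher and 26.0% lower, and glycolysis and hypoxia, feeder fibroblast and tubulins reach furthest to the left and ERK feedback and ETS targets furthest to the right.

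Genes of replication licensing and of the entry into S phase were higher in late G1. On the G1 to S list, 29 of 62 tested members were called higher in late G1 and 4 were called lower, with a median log2 change of 0.44. Cdc6, which loads the MCM helicase at origins (ENSMUSG00000017499, chr11:98907801-98923940, plus strand), had 145 and 149.9 CPM in late G1 against 49.8 and 36.9 CPM in asynchronous cells (log2 change 1.76 ± 0.16, adjusted p = 0.000183). Ccne2, cyclin E2, the partner of CDK2, had 48.2 and 51.1 CPM in late G1 against 11.8 and 7.15 CPM in asynchronous cells (log2 change 2.38 ± 0.23, adjusted p = 0.000202). E2f8, a repressor in the E2F family, had 116 and 112 CPM in late G1 against 27.6 and 15.8 CPM in asynchronous cells (log2 change 2.39 ± 0.25, adjusted p = 0.000285). Both late G1 libraries lay above both asynchronous ones in all 3 genes, and the late G1 replicates were the closer pair. E2f7, the partner of E2f8, was higher by 2.02 and the origin recognition gene Orc1 by 1.22. Ccne1, cyclin E1, had 344 and 352 CPM in late G1 against 133 and 188 CPM in asynchronous cells (log2 change 1.12 ± 0.17, adjusted p = 0.00122), and Ccnd1, cyclin D1, had 137 and 141 CPM in late G1 against 56.9 and 74.5 CPM in asynchronous cells (log2 change 1.08 ± 0.15, adjusted p = 0.000789).

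The helicase genes did not move as a block. Mcm2 (log2 change 0.95 ± 0.10), Mcm4 (1.22 ± 0.20) and Mcm5 (0.65 ± 0.12) were called higher, whereas Mcm3 (0.25 ± 0.11), Mcm6 (-0.09 ± 0.12) and Mcm7 (0.20 ± 0.22) were not. Together Mcm2 to Mcm7 summed to 3750 and 3770 CPM in late G1 against 2600 and 2750 CPM in asynchronous cells. The 4 members called lower were Rfc2, a clamp loader subunit (-0.79), E2f1, an activator of the E2F family (-0.72), Lig1, the replicative DNA ligase (-0.71), and Pold1, the catalytic subunit of DNA polymerase delta (-0.63). The Rfc2 call was lost without late G1 replicate 1 or late G1 replicate 2 (adjusted p = 0.106 and 0.0925), and over all alternatives its adjusted p ran from 7.78e-21 to 0.106. The Lig1 call was lost without late G1 replicate 1 or late G1 replicate 2 (adjusted p = 0.0547 and 0.0514), and over all alternatives its adjusted p ran from 4.12e-18 to 0.0547. The Pold1 call was lost without late G1 replicate 2 (adjusted p = 0.0773), and over all alternatives its adjusted p ran from 2.47e-15 to 0.0773. Mcm7 was called without asynchronous replicate 2 (log2 change 0.614, adjusted p = 0.00236), and over all alternatives its adjusted p ran from 0.00236 to 0.921. Without asynchronous replicate 2 the log2 change was -0.365 for Rfc2 and -0.469 for Lig1. The G1 to S list had 19 called higher without late G1 replicate 2, and 2 called lower without late G1 replicate 1, 1 without late G1 replicate 2, 7 without asynchronous replicate 1 and 7 without asynchronous replicate 2.

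An E2F motif was present in a part of the promoters of the G1 to S genes. Promoter sequences of 300 bases, from 250 before to 50 after the start of transcription, were taken from RefSeq (GRCm38.p6), and 49 of 62 members matched by symbol. One of TTTCCCGC, TTTGGCGC, TTTCGCGC or TTTGCCGC was present on either strand in 20 of the 49 (40.8%), in 12 of the 24 of these that were called higher, in 2.60% of 27025 genes with a promoter and in 4.51% of the 11476 tested protein-coding genes with one. Among the members called higher in order of p, Cdc6 and E2f7 were the first with a match, and E2f8 and Mcm2 had none. The promoters of Cdc6 (chr11:98907901-98908200, plus strand) and E2f7 (chr10:110745189-110745488, plus strand) read 5′ to 3′ on the strand of the gene, with the matches in capitals and the rest in lower case.
Cdc6: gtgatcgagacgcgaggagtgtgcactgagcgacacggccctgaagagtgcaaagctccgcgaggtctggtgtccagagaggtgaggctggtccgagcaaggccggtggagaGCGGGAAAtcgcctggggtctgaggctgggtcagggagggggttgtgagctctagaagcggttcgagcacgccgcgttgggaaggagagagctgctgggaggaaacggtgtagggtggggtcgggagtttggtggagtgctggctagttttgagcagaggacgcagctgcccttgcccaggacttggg
E2f7: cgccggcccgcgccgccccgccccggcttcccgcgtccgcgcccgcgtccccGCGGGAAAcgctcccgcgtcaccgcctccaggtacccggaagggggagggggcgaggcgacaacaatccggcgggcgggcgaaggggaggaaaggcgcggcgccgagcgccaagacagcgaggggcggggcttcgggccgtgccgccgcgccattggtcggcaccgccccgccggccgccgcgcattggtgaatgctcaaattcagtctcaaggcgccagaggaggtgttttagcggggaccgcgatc
A match to these letters is a description of the sequence and not of binding by a factor.

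Genes of G2 and M phase were lower on balance but split. Of 60 tested members 24 were called lower and 7 higher, with a median log2 change of -0.30. Top2a, the topoisomerase that untangles sister chromatids, had 341 and 357 CPM in late G1 against 1329 and 1037 CPM in asynchronous cells (log2 change -1.76 ± 0.15, adjusted p = 0.000132). Nusap1, a spindle protein, had 45.4 and 47.1 CPM in late G1 against 156 and 149 CPM in asynchronous cells (log2 change -1.72 ± 0.13, adjusted p = 9.01e-05). Cdca2, a chromatin phosphatase regulator of mitotic exit, had 63.8 and 69.3 CPM in late G1 against 172 and 170.3 CPM in asynchronous cells (log2 change -1.36 ± 0.12, adjusted p = 0.000173). These falls were well outside the spread of either pair of replicates. Ube2c, the ubiquitin-conjugating enzyme of the anaphase-promoting complex, fell by 1.53 and Fzr1, the activator of that complex in G1, fell by 1.40 on the log2 scale.

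Ccnb1 and Plk1, often used as mitotic markers, fell less. Ccnb1, cyclin B1, had 93.6 and 101 CPM in late G1 against 136 and 139.7 CPM in asynchronous cells (log2 change -0.51 ± 0.11, adjusted p = 0.00646), and Plk1, polo-like kinase 1, had 82.5 and 81.5 CPM in late G1 against 129.9 and 145 CPM in asynchronous cells (log2 change -0.74 ± 0.12, adjusted p = 0.00145). For Ccnb1 the call was lost with the 4 libraries fitted alone (adjusted p = 0.0511) and without late G1 replicate 1 (adjusted p = 0.0891). The 7 members called higher included the kinesin gene Kif20a (log2 change 1.59 ± 0.29, adjusted p = 0.00293), the microtubule-binding Gtse1 (log2 change 1.08 ± 0.13, adjusted p = 0.000504), the spindle checkpoint gene Mad2l1 (log2 change 1.07 ± 0.15, adjusted p = 0.00103) and Cdc20, the activator of the anaphase-promoting complex in mitosis (log2 change 0.59 ± 0.16, adjusted p = 0.0167). The Cdc20 call was lost without late G1 replicate 1 or late G1 replicate 2 (adjusted p = 0.0868 and 0.0693), and over all alternatives its adjusted p ran from 1.9e-06 to 0.0868. The log2 change of Cdc20 was 0.383 without asynchronous replicate 1. The number called higher was 3 with the 4 libraries fitted alone. The G2 and M list had 3 called higher without late G1 replicate 1, 3 without late G1 replicate 2 and 16 without asynchronous replicate 1, and 14 called lower without late G1 replicate 1 and 15 without late G1 replicate 2, and a median of -0.174 without asynchronous replicate 1.

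**Figure D2:**
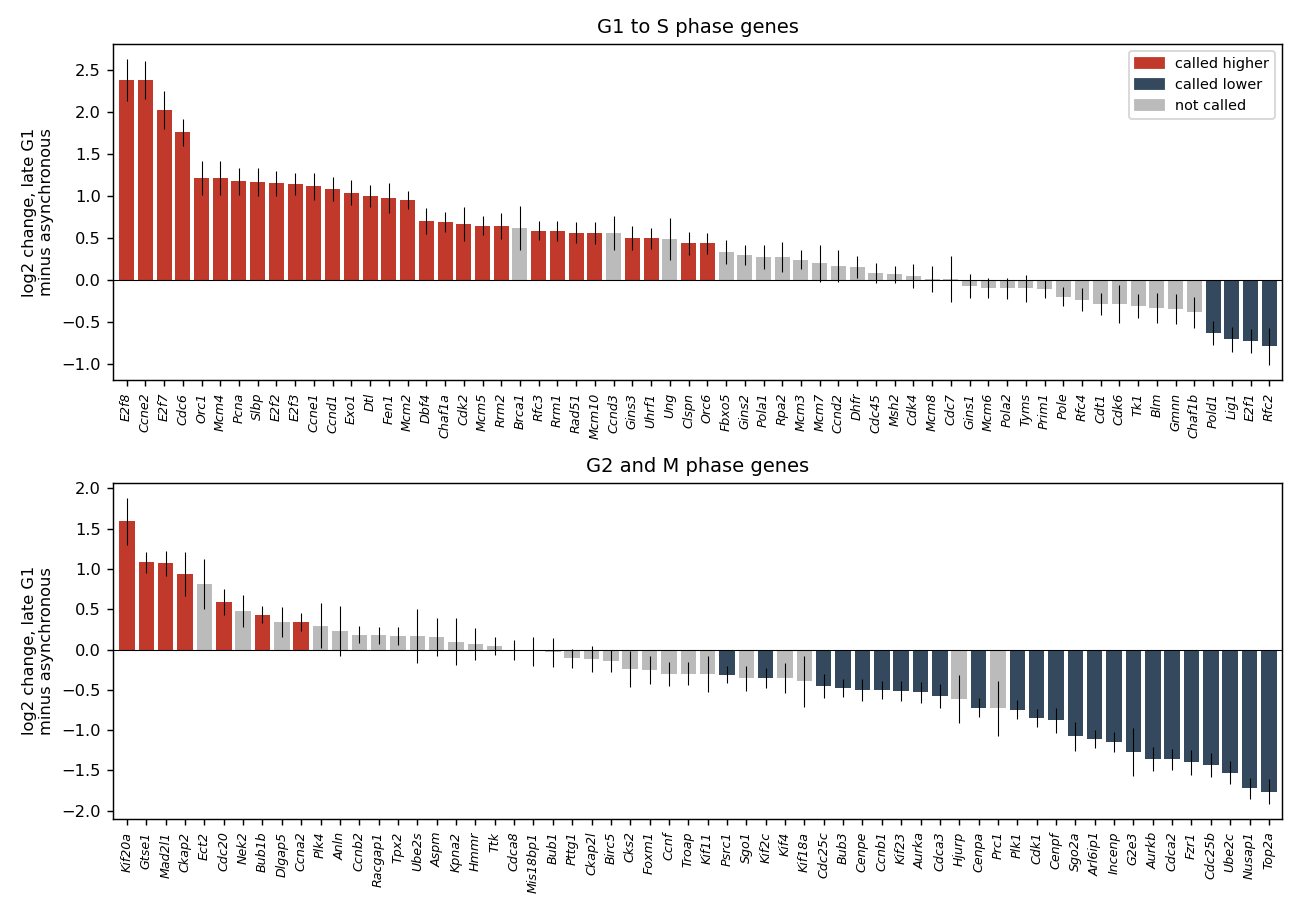
Fitted log2 change of late G1 over asynchronous cells for the 62 tested G1 to S phase genes (top) and the 60 tested G2 and M phase genes (bottom), sorted by size, with error bars of 1 SE. Red bars were called higher, dark bars lower and grey bars neither, with 29 red and 4 dark bars in the top panel against 7 red and 24 dark bars in the bottom panel.

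Targets of ERK signalling were higher in late G1. The inhibitor in the growth medium blocks MEK, the kinase that activates ERK, and Sprouty and DUSP proteins are feedback inhibitors that ERK itself induces. Of 20 members, 15 were called higher and 1 lower, with a median log2 change of 1.38. Spry4, a Sprouty feedback inhibitor (ENSMUSG00000024427, chr18:38586247-38601415, minus strand), had 36.8 and 35.2 CPM in late G1 against 0.876 and 1.83 CPM in asynchronous cells (log2 change 4.77 ± 0.32, adjusted p = 6.15e-05). Egr1, an immediate early zinc finger factor (ENSMUSG00000038418, chr18:34859823-34864984, plus strand), had 8.48 and 8.30 CPM in late G1 against 0.358 and 0.203 CPM in asynchronous cells (log2 change 4.84 ± 0.31, adjusted p = 5.12e-05). Phlda1, a pleckstrin-domain target of ERK, had 18.8 and 17.8 CPM in late G1 against 2.39 and 2.38 CPM in asynchronous cells (log2 change 2.94 ± 0.17, adjusted p = 3.83e-05). The asynchronous levels of Spry4 and Egr1 were under 2 CPM in both libraries. Spry2 rose by 2.34, the phosphatase Dusp6 by 2.28 and the ETS factor Etv4 by 2.48 on the log2 scale. Etv4 had 9.87 and 31.9 CPM in the asynchronous replicates, an uneven pair. The member called lower was Ier3, an early response gene, with 6.29 and 6.66 CPM in late G1 against 73.5 and 73.2 CPM in asynchronous cells (log2 change -3.50 ± 0.15, adjusted p = 2.05e-05).

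Immediate early genes, which cells induce within minutes of a stimulus without new protein, were split. Of 32 members 16 were called higher and 9 lower, with a median of 0.48. Myc, the growth-promoting transcription factor, had 40.0 and 36.2 CPM in late G1 against 3.46 and 1.06 CPM in asynchronous cells (log2 change 4.03 ± 0.45, adjusted p = 0.000368). The asynchronous libraries differed by more than the late G1 ones but both lay far below them. Btg2, an antiproliferative gene, had 194 and 199 CPM in late G1 against 71.7 and 70.8 CPM in asynchronous cells (log2 change 1.46 ± 0.11, adjusted p = 8.02e-05), and Fosl1, a partner of JUN, had 7.80 and 7.27 CPM in late G1 against 1.55 and 1.62 CPM in asynchronous cells (log2 change 2.24 ± 0.24, adjusted p = 0.000303). Fos itself rose by less (log2 change 0.62 ± 0.18, adjusted p = 0.0193), and Ier2 did not pass the test (log2 change 0.00 ± 0.15). The Fos call was lost without late G1 replicate 1 or late G1 replicate 2 (adjusted p = 0.0942 and 0.11), and over all alternatives its adjusted p ran from 1.15e-05 to 0.11. Gadd45g, a stress-inducible gene, fell by 3.05 on the log2 scale (adjusted p = 0.000147).

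Cyp1a1 showed the largest rise among the genes that met the naming rule. Cyp1a1 encodes a cytochrome P450 that the aryl hydrocarbon receptor induces (ENSMUSG00000032315, chr9:57687928-57703824, plus strand), and it had 22.8 and 21.0 CPM in late G1 against 0.159 and 0.101 CPM in asynchronous cells (log2 change 7.30 ± 0.38, adjusted p = 2.8e-05). Its asynchronous values lay near the floor of 3 counts. Of the 9 genes on the aryl hydrocarbon receptor list, 4 were called higher and 1 lower, with a median of 0.41. Nqo1, a quinone reductase, had 51.9 and 53.2 CPM in late G1 against 23.6 and 25.9 CPM in asynchronous cells (log2 change 1.09 ± 0.12, adjusted p = 0.000405), and the receptor gene Ahr had 19.3 and 19.3 CPM in late G1 against 10.3 and 5.17 CPM in asynchronous cells (log2 change 1.31 ± 0.31, adjusted p = 0.00893). Cyp1b1, another target, did not pass the test (log2 change -0.60 ± 0.24, adjusted p = 0.0666), and Aldh3a1 was lower (log2 change -1.05 ± 0.30, adjusted p = 0.0211). Cyp1b1 was called without asynchronous replicate 2, mitotic replicate 1 or mitotic replicate 2 (log2 change -0.693, -0.591 and -0.591, adjusted p = 0.0431, 0.0412 and 0.041), and over all alternatives its adjusted p ran from 0.00959 to 0.289. The Aldh3a1 call was lost without late G1 replicate 1 or asynchronous replicate 2 (adjusted p = 0.164 and 0.0549), and over all alternatives its adjusted p ran from 0.000536 to 0.164. The aryl hydrocarbon receptor list had a median of 0.719 without asynchronous replicate 1 and 0.271 without asynchronous replicate 2.

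Glycolytic and hypoxia-responsive genes were lower in late G1, and this list had the largest share of called members. Hypoxia-inducible factors switch on glycolytic enzymes, glucose and lactate carriers and mitophagy genes when oxygen is scarce or when their degradation is slowed. Of 41 tested gene IDs 35 were called lower and 2 higher, with a median log2 change of -1.59. Promoters are shown for 3 members, since most of the list moved in the same direction. Of 40 symbols 35 had a RefSeq promoter, and 26 of these (74.3%) held ACGTG, the core of the hypoxia response element, on either strand. A gene was counted if any of its promoters held the motif. This was so for 23 of the 30 members called lower that had a promoter. It was so for 21.8% of all 27025 genes with a promoter and for 28.3% of the 11476 tested protein-coding genes with one. ACGTG also lies within the E-box CACGTG, so a match does not tell these sites apart. The promoters of Bnip3 (chr7:138909457-138909756, minus strand), Ddit4 (chr10:59951721-59952020, minus strand) and Slc16a3 (chr11:120948817-120949116, plus strand), the members called lower with the smallest p that had 1 promoter and a match, read 5′ to 3′ on the strand of the gene, with matches (or the E-box around one) in capitals.
Bnip3: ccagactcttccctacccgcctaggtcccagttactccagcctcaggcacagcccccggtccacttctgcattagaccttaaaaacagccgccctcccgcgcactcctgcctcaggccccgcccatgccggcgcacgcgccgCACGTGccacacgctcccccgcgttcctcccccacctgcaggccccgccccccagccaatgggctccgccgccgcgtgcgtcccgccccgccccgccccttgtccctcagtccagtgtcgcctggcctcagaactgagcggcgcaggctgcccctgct
Ddit4: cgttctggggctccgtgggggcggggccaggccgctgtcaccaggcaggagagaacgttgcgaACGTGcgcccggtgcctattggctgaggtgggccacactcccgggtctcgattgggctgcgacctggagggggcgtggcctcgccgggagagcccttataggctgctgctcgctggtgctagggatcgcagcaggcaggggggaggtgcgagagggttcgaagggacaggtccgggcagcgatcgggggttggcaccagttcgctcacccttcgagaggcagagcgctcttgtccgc
Slc16a3: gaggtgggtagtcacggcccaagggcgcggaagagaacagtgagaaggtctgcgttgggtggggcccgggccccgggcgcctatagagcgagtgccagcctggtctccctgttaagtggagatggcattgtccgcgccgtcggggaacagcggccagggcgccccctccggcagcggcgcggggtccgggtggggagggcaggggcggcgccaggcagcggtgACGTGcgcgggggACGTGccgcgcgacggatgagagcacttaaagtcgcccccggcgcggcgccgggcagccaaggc
No binding was measured at these sites.

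Adm, the vasodilator adrenomedullin (log2 change -5.90 ± 0.47, adjusted p = 0.000107), and Loxl2 had the largest falls on the list. Bnip3, a mitophagy receptor (ENSMUSG00000078566, chr7:138890836-138909519, minus strand), had 11.6 and 10.8 CPM in late G1 against 116 and 96.0 CPM in asynchronous cells (log2 change -3.24 ± 0.15, adjusted p = 2.19e-05). Ndrg1, a differentiation and stress gene induced by hypoxia, had 33.7 and 35.4 CPM in late G1 against 290.0 and 326 CPM in asynchronous cells (log2 change -3.16 ± 0.14, adjusted p = 2.12e-05). Loxl2, a lysyl oxidase that crosslinks matrix, had 3.56 and 3.19 CPM in late G1 against 87.1 and 75.3 CPM in asynchronous cells (log2 change -4.59 ± 0.18, adjusted p = 1.3e-05). The groups were separated by several times the replicate spread in all 3. Ddit4, an inhibitor of mTORC1 that is also on the stress response list, had 92.2 and 91.8 CPM in late G1 against 519 and 546 CPM in asynchronous cells (log2 change -2.53 ± 0.14, adjusted p = 2.96e-05). Slc16a3, a lactate exporter, had 83.0 and 79.9 CPM in late G1 against 439 and 508 CPM in asynchronous cells (log2 change -2.54 ± 0.15, adjusted p = 4.62e-05). P4ha2, a prolyl hydroxylase of collagen, fell by 3.20 on the log2 scale and kept 10.5 and 10.2 CPM in late G1. Enzymes of the pathway itself fell too, with Aldoa (-1.38), Pgk1 (-1.59), Tpi1 (-1.78), Ldha (-1.34) and Gapdh (-0.93) lower by these log2 amounts. Aldoa, aldolase A, alone had 1933 and 1940.5 CPM in late G1 against 4451 and 5645 CPM in asynchronous cells. A second gene ID with the symbol Aldoa had under 3 CPM and was not called. The 2 members called higher were the histone demethylase Kdm3a (log2 change 1.18 ± 0.26, adjusted p = 0.00682) and Pfkfb4, a regulator of phosphofructokinase (log2 change 1.05 ± 0.22, adjusted p = 0.00607). The list summed to 10790 and 10880 CPM in late G1 against 24280 and 28460 CPM in asynchronous cells. The part of feeder RNA in the falls was not tested.

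**Figure D3:**
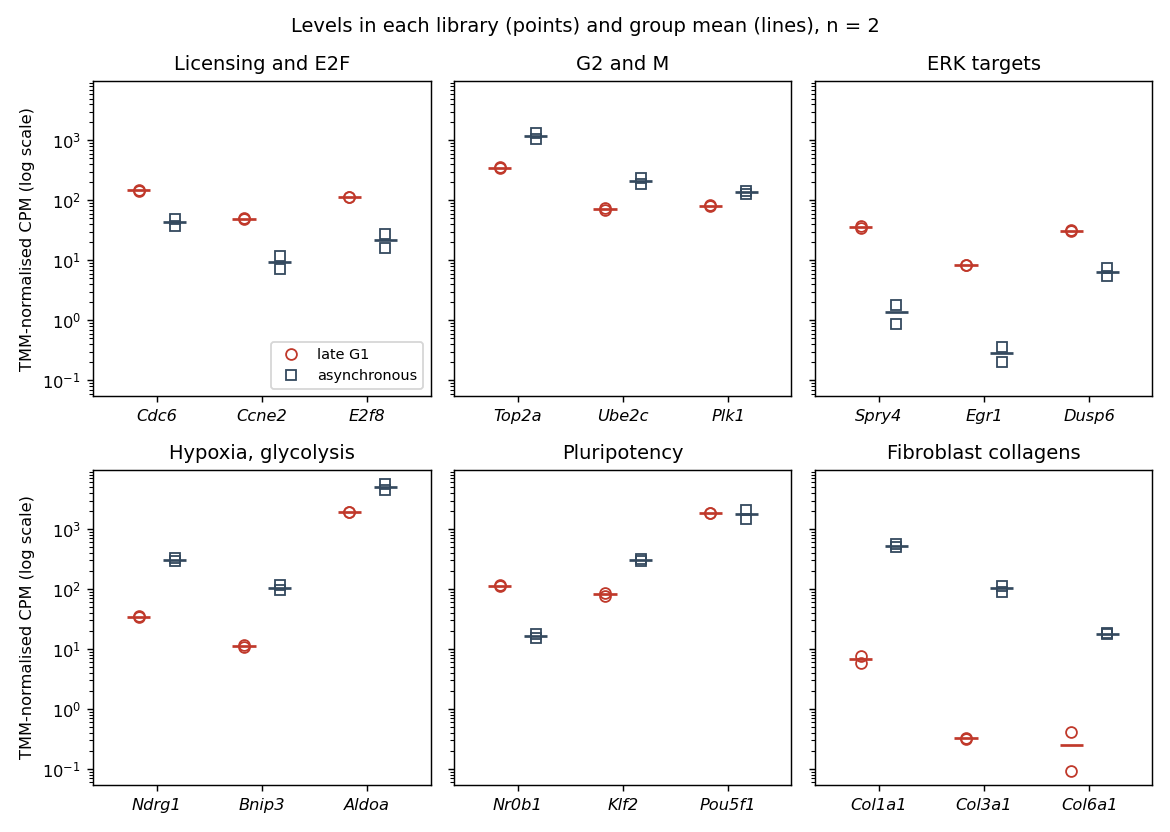
Levels of 18 genes in each library in TMM-normalised CPM on a log scale, late G1 as red circles and asynchronous as dark squares, with lines at the means of n = 2. The late G1 and asynchronous points are apart in every gene shown except Pou5f1, whose 2 late G1 levels fall between the asynchronous ones.

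Genes of the integrated stress response, which ATF4 switches on when translation is held back, were lower in late G1. Of 36 members 20 were called lower and 8 higher, with a median log2 change of -0.51. Stc2, a secreted glycoprotein induced by stress in the endoplasmic reticulum, had 3.79 and 4.69 CPM in late G1 against 77.8 and 74.4 CPM in asynchronous cells (log2 change -4.17 ± 0.20, adjusted p = 2.38e-05). Ddit3, the transcription factor CHOP, had 9.08 and 9.66 CPM in late G1 against 84.5 and 104 CPM in asynchronous cells (log2 change -3.33 ± 0.16, adjusted p = 2.44e-05). Nupr1, a stress-inducible chromatin protein, had 9.94 and 9.76 CPM in late G1 against 159 and 249 CPM in asynchronous cells (log2 change -4.37 ± 0.37, adjusted p = 0.000122). Each of these had far less in late G1 than in either asynchronous library. Fgf21, a hormone gene, had 0 counts in both late G1 libraries and was at least 11.0-fold lower. Among the 8 members called higher were the cationic amino acid carrier Slc7a3 (log2 change 2.12 ± 0.16, adjusted p = 8.72e-05) and Cth, which makes cysteine (log2 change 1.97 ± 0.21, adjusted p = 0.000306). The stress response list had 5 called higher without late G1 replicate 1 and 5 without late G1 replicate 2, and 13 called lower without late G1 replicate 1 and 12 without late G1 replicate 2.

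Tubulin genes were lower 3 h after nocodazole had been removed. Cells lower their tubulin messenger RNA when free tubulin is abundant, as it is while microtubules are dissolved. Of 16 members 11 were called lower and 1 higher, with a median log2 change of -0.85. Tubb5, the main beta tubulin of dividing cells, had 1048 and 1047 CPM in late G1 against 3359 and 4044 CPM in asynchronous cells (log2 change -1.82 ± 0.12, adjusted p = 6.66e-05). Tuba1c, an alpha tubulin, had 52.8 and 43.3 CPM in late G1 against 118 and 209 CPM in asynchronous cells (log2 change -1.76 ± 0.25, adjusted p = 0.000962). Tubg2, a gamma tubulin that nucleates microtubules, had 0.958 and 0.704 CPM in late G1 against 7.33 and 5.83 CPM in asynchronous cells (log2 change -2.98 ± 0.35, adjusted p = 0.000466). The late G1 pair lay below the asynchronous pair in all 3, and the asynchronous replicates of Tuba1c differed widely. Tubb4b (-0.23 ± 0.18) and Tuba1a (-0.23 ± 0.14) did not pass the test, and Tuba4a was called higher (log2 change 0.78 ± 0.18, adjusted p = 0.00774). Tubb4b was called without asynchronous replicate 1 (log2 change -0.5, adjusted p = 0.00068), and over all alternatives its adjusted p ran from 8.61e-10 to 0.599. Tuba1a was called without asynchronous replicate 1 (log2 change -0.375, adjusted p = 0.0173), and over all alternatives its adjusted p ran from 4.35e-05 to 0.611.

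Heat shock genes leaned to the higher side. Of 24 members 10 were called higher and 3 lower, with a median of 0.37. Hsph1, a large chaperone of the HSP110 family, had 516 and 535 CPM in late G1 against 114 and 165 CPM in asynchronous cells (log2 change 1.91 ± 0.21, adjusted p = 0.000338). Dnaja1, a co-chaperone of HSP70, had 81.9 and 83.4 CPM in late G1 against 33.6 and 36.6 CPM in asynchronous cells (log2 change 1.24 ± 0.12, adjusted p = 0.000197), and Hspa4, another HSP110 chaperone, rose by 0.79. The 3 lower members were Cryab (-0.64), Bag3 (-0.85) and Dnajb4 (-1.40). The Cryab call was lost without late G1 replicate 1, late G1 replicate 2, asynchronous replicate 2, early G1 replicate 1 or early G1 replicate 2 (adjusted p = 0.178, 0.137, 0.12, 0.0708 and 0.0691), and over all alternatives its adjusted p ran from 6.76e-10 to 0.178. The Dnajb4 call was lost without late G1 replicate 1 (adjusted p = 0.0614), and over all alternatives its adjusted p ran from 1.99e-06 to 0.0614. The heat shock list had 6 called higher without late G1 replicate 1 and 6 without late G1 replicate 2, and 1 called lower without late G1 replicate 1 and 5 without asynchronous replicate 1, and a median of 0.165 without asynchronous replicate 1. On the cholesterol and fatty acid list 7 of 32 members were called higher and 9 lower, with a median of -0.12. Idi1, an isomerase of the sterol pathway, had 8.62 and 7.69 CPM in late G1 against 3.15 and 1.47 CPM in asynchronous cells (log2 change 1.80 ± 0.35, adjusted p = 0.00421). Msmo1 and Fdft1, both of sterol synthesis, fell by 0.83 and 0.72 on the log2 scale. These shares were near those over all genes tested. The cholesterol and fatty acid list had 4 called higher without late G1 replicate 1 and 4 without late G1 replicate 2, and 4 called lower without late G1 replicate 1 and 4 without late G1 replicate 2, and a median of -0.0575 without late G1 replicate 1 and -0.0131 without asynchronous replicate 1.

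The central pluripotency factors Pou5f1, Sox2 and Esrrb did not pass the test. Pou5f1, which encodes OCT4, had 1848 and 1888 CPM in late G1 against 1472 and 2071 CPM in asynchronous cells, and the log2 change of 0.08 ± 0.16 was not called (adjusted p = 0.719). Sox2 had 264 and 243 CPM in late G1 against 312 and 251 CPM in asynchronous cells (log2 change -0.15 ± 0.14, adjusted p = 0.385), and Esrrb had 351 and 332 CPM in late G1 against 264 and 364 CPM in asynchronous cells (log2 change 0.12 ± 0.18, adjusted p = 0.59). The groups overlapped in all 3 genes. A p that misses the threshold does not show that the levels were equal. Without asynchronous replicate 2 the log2 changes were 0.341 for Pou5f1, -0.3 for Sox2 and 0.37 for Esrrb. Nanog had 760.0 and 776 CPM in late G1 against 641 and 597 CPM in asynchronous cells, and its small rise was called (log2 change 0.31 ± 0.11, adjusted p = 0.043), but not with the 4 libraries fitted alone (adjusted p = 0.138) or without late G1 replicate 1 or 2 (adjusted p = 0.155 and 0.196).

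The wider naive network moved in both directions. Of 32 members of the core and naive list 16 were called higher and 5 lower, with a median log2 change of 0.39. Nr0b1, the nuclear receptor DAX1, had 117 and 111 CPM in late G1 against 15.5 and 17.7 CPM in asynchronous cells (log2 change 2.78 ± 0.13, adjusted p = 2.19e-05). L1td1, an RNA-binding protein of pluripotent cells, had 854 and 878 CPM in late G1 against 345 and 355 CPM in asynchronous cells (log2 change 1.31 ± 0.11, adjusted p = 0.000125). Klf4, a Krüppel-like factor downstream of LIF, had 191 and 176 CPM in late G1 against 84.3 and 66.3 CPM in asynchronous cells (log2 change 1.28 ± 0.16, adjusted p = 0.000634). Its relative Klf2 moved the other way, with 87.6 and 76.0 CPM in late G1 against 289 and 312 CPM in asynchronous cells (log2 change -1.88 ± 0.13, adjusted p = 6.66e-05), and Klf5 did not pass the test (log2 change -0.01 ± 0.16). The other falls were Dppa3 (-1.38), which protects methylated DNA in the egg and early embryo, the growth factor Fgf4 (184 and 190.2 CPM in late G1 against 334 and 414 CPM in asynchronous cells, adjusted p = 0.0019), the Nodal co-receptor Tdgf1 (-0.90) and Prdm14 (-0.76). The Prdm14 call was lost without late G1 replicate 1, late G1 replicate 2, asynchronous replicate 1, early G1 replicate 1 or early G1 replicate 2 (adjusted p = 0.132, 0.137, 0.0742, 0.0562 and 0.055), and over all alternatives its adjusted p ran from 9.58e-08 to 0.137.

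On the formative and primed list 10 of 20 members were called higher and 6 lower, with a median of 0.49. The rises included the ERK feedback genes Spry4 and Spry2 given above, and Dnmt3b, a de novo DNA methyltransferase, with 336 and 344 CPM in late G1 against 80.9 and 68.9 CPM in asynchronous cells (log2 change 2.18 ± 0.16, adjusted p = 8.62e-05). The ligand gene Nodal was higher (0.95), and Lefty1 (-3.72) and Lefty2 (-1.56), which encode inhibitors of Nodal, were lower. Lefty1 had 12.4 and 12.2 CPM in late G1 against 155 and 170.1 CPM in asynchronous cells (log2 change -3.72 ± 0.26, adjusted p = 6.75e-05). Otx2 and Fgf5, markers of the formative state, were lower (-1.64 and -2.49), Fgf5 at levels under 3 CPM throughout. The Otx2 call was lost without late G1 replicate 1 or 2 or without asynchronous replicate 2 (adjusted p = 0.129, 0.0978 and 0.237), and the change was -0.914 without the last of these. The Lefty2 call was lost without asynchronous replicate 2 (adjusted p = 0.0686), and over all alternatives its adjusted p ran from 3.17e-28 to 0.0686. The Fgf5 call was lost without late G1 replicate 1 (adjusted p = 0.0541), and over all alternatives its adjusted p ran from 1.08e-06 to 0.0541.

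Cytokine and Wnt targets leaned higher. On the LIF and STAT3 list 9 of 19 members were called higher and 5 lower, with a median of 0.26. Gbx2, a homeobox target of STAT3, had 9.58 and 9.01 CPM in late G1 against 2.03 and 2.08 CPM in asynchronous cells (log2 change 2.17 ± 0.22, adjusted p = 0.000259), and Il6st, the shared receptor subunit gp130, rose by 0.93, while the feedback inhibitor Socs3 was lower (log2 change -1.01 ± 0.13, adjusted p = 0.000557). On the Wnt and beta-catenin list 13 of 22 were called higher and 5 lower, with a median of 0.98. Wnt8a, a Wnt ligand, had 0 counts in both asynchronous libraries and was at least 11.4-fold higher in late G1. Notum, an enzyme that inactivates Wnt, had 28.3 and 27.1 CPM in late G1 against 9.12 and 11.7 CPM in asynchronous cells (log2 change 1.42 ± 0.16, adjusted p = 0.000426). The feedback gene Axin2 rose by 1.24 (adjusted p = 0.0167), whereas Rnf43, which removes Wnt receptors (-3.46), and Lef1, a nuclear partner of beta-catenin (-2.41), fell. The Axin2 call was lost without late G1 replicate 1, late G1 replicate 2 or asynchronous replicate 2 (adjusted p = 0.0761, 0.0641 and 0.0556), and over all alternatives its adjusted p ran from 2.92e-12 to 0.0761. The LIF and STAT3 list had 3 called lower without late G1 replicate 1 and 3 without late G1 replicate 2, and a median of 0.433 without asynchronous replicate 1. The Wnt list had 5 called higher without late G1 replicate 1 and 6 without late G1 replicate 2, and 2 called lower without late G1 replicate 1 and 3 without late G1 replicate 2.

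Genes of germ layers and extraembryonic tissue were split, with 8 of 23 members called higher, 10 lower and a median of 0.29. The keratin genes Krt19 and Krt18, of early epithelia, were lower, with 8.35 and 7.83 CPM in late G1 against 52.4 and 98.7 CPM in asynchronous cells for Krt19 (log2 change -3.22 ± 0.29, adjusted p = 0.000151) and a log2 change of -2.20 ± 0.27 for Krt18. Gata4, an endoderm and heart factor, fell by 1.73, while Sox7, another endoderm factor, rose by 3.03. Of 15 two-cell-like genes, which mark a rare state that resembles the early embryo, 1 was called higher and 6 lower, with a median of -0.83. Zscan4c had 0.912 and 1.13 CPM in late G1 against 3.30 and 2.74 CPM in asynchronous cells (log2 change -1.57 ± 0.28, adjusted p = 0.00263), and the log2 change was -2.71 ± 0.37 for Tcstv1 and -1.60 ± 0.32 for Tmem92. Members of the Zscan4 family are near-identical, and their counts are uncertain. The tested two-cell-like genes summed to 279.5 and 288 CPM in late G1 against 214 and 215 CPM in asynchronous cells. Most of this sum came from Eif1a, the member called higher. Eif1a had 267 and 276 CPM in late G1 against 184 and 191 CPM in asynchronous cells. It was far more abundant than Zscan4c in both states, so the list sum says little about the rare state. The germ layer list had 5 called lower without late G1 replicate 1 and 6 without late G1 replicate 2, and a median of 0.179 without late G1 replicate 1, 0.0155 without asynchronous replicate 1 and 0.621 without asynchronous replicate 2. The two-cell-like list had 3 called lower without late G1 replicate 2, and a median of -0.125 without asynchronous replicate 1.

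Targets of p53, which arrests or kills stressed cells, were higher on balance, with 17 of 33 called higher, 4 lower and a median of 0.38. Plk2, a polo-like kinase of the stress response, had 265 and 268 CPM in late G1 against 39.9 and 29.3 CPM in asynchronous cells (log2 change 2.94 ± 0.17, adjusted p = 4.02e-05). Pidd1, a death-domain protein, had 126 and 118 CPM in late G1 against 44.4 and 45.1 CPM in asynchronous cells (log2 change 1.44 ± 0.12, adjusted p = 0.000116), and Mdm2, the ubiquitin ligase that degrades p53, had 508 and 510.4 CPM in late G1 against 174 and 133 CPM in asynchronous cells (log2 change 1.73 ± 0.15, adjusted p = 0.000138). The p53 gene Trp53 itself rose by 1.35 and Ccng1, cyclin G1, by 1.24. Cdkn1a, which encodes the CDK inhibitor p21 and is the best known target, did not pass the test, with 188 and 182 CPM in late G1 against 173 and 273 CPM in asynchronous cells (log2 change -0.27 ± 0.24, adjusted p = 0.366). The asynchronous replicates lay on both sides of the late G1 pair, and without asynchronous replicate 1 the log2 change of Cdkn1a was -0.558. Ccng2, cyclin G2, a gene of growth arrest, fell by 3.58 (adjusted p = 0.000154). The p53 list had 1 called lower without late G1 replicate 1, 1 without late G1 replicate 2 and 7 without asynchronous replicate 1.

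Ribosome biogenesis and the ribosomal proteins moved in opposite directions. Nucleolar proteins and RNA polymerase I make and process ribosomal RNA, and 31 of 50 such genes were called higher and 1 lower, with a median of 0.55. Ddx21, a nucleolar helicase, had 722 and 757 CPM in late G1 against 239 and 168 CPM in asynchronous cells (log2 change 1.86 ± 0.17, adjusted p = 0.000169). Taf1d, of the polymerase I initiation factor, had 252 and 249 CPM in late G1 against 114 and 108 CPM in asynchronous cells (log2 change 1.17 ± 0.11, adjusted p = 0.000221), and Polr1b, the second largest subunit of that polymerase, rose by 1.13. The ribosome biogenesis list had 8 called lower without asynchronous replicate 1. Of 84 ribosomal protein genes 49 were called lower and 4 higher, with a median of -0.76. They summed to 21580 and 22840 CPM in late G1 against 33180 and 46350 CPM in asynchronous cells. Rpl12 had 210.1 and 206 CPM in late G1 against 444 and 532 CPM in asynchronous cells (log2 change -1.23 ± 0.13, adjusted p = 0.000287), and Rpl36 fell by 1.79 on the log2 scale. Reads of ribosomal proteins can be split with pseudogenes, so single values are uncertain. Nuclear genes for respiratory chain subunits fell too, with 40 of 75 called lower, 2 higher and a median of -0.61. Ndufv3 had 72.6 and 73.5 CPM in late G1 against 171 and 268 CPM in asynchronous cells (log2 change -1.59 ± 0.20, adjusted p = 0.000549), and Ndufa13 and Ndufa6, of the same complex I, fell by 1.39 and 1.02.

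Gene length moved with both falls. The ribosomal protein and respiratory chain genes had a median exon length of 1754 and 1756 bases against 4282 bases for all tested protein-coding genes. With protein-coding genes in 5 bins of equal size by exon length, the median log2 change of late G1 over asynchronous cells was -0.446, -0.116, -0.00363, 0.0681 and 0.126, from the shortest bin (123 to 2356 bases) to the longest (7424 to 123179 bases). In the shortest bin 13.3% were called higher and 38.5% lower, and in the longest 27.5% and 20.8%. The asynchronous replicates differed along the same axis: replicate 2 minus replicate 1 had a median of 0.329 in the shortest bin and -0.319 in the longest, while the late G1 replicates differed by 0.026 and -0.0201. Without asynchronous replicate 1 the medians of the shortest and longest bin were -0.636 and 0.298, and without asynchronous replicate 2 they were -0.212 and -0.0209. The ribosomal protein list had 1 called higher without late G1 replicate 1, 1 without late G1 replicate 2 and 9 without asynchronous replicate 2, and 24 called lower without late G1 replicate 1 and 29 without late G1 replicate 2, and a median of -0.423 without asynchronous replicate 2. The respiratory chain list had 4 called higher without asynchronous replicate 1 and 6 without asynchronous replicate 2, and 8 called lower without late G1 replicate 1, 11 without late G1 replicate 2 and 25 without asynchronous replicate 2, and a median of -0.267 without asynchronous replicate 2. The part of gene length or of the asynchronous replicates in these falls was not tested.

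**Figure D4:**
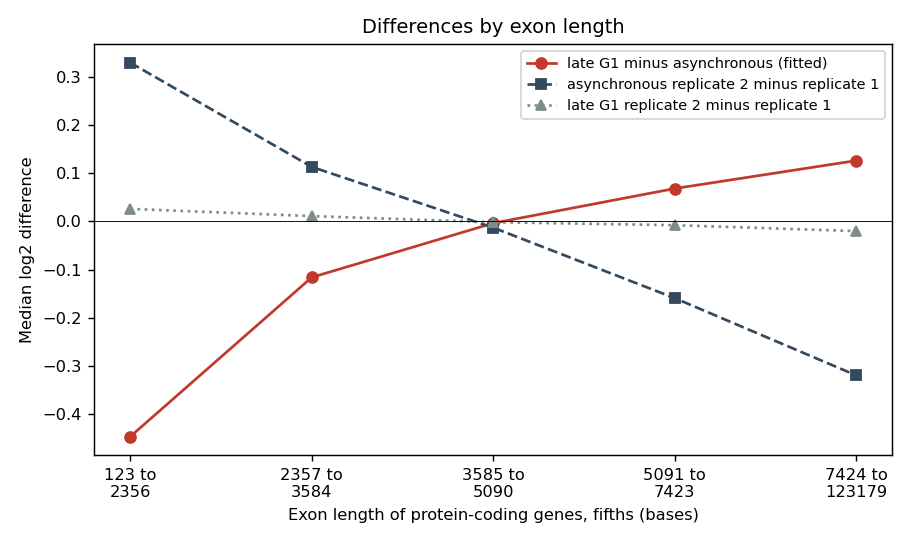
Median log2 difference over protein-coding genes in 5 bins of exon length (bases), for late G1 minus asynchronous cells (fitted), asynchronous replicate 2 minus replicate 1, and late G1 replicate 2 minus replicate 1. The state difference climbs with length (-0.446 to 0.126), the asynchronous replicate difference runs the other way (0.329 to -0.319) and the late G1 replicate difference stays near 0.

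Chromatin genes were higher more often than lower. On the DNA methylation list 12 of 19 members were called higher and 3 lower, with a median of 0.62. The rises held both writers and erasers, Dnmt3b as above, its cofactor Dnmt3l with 955 and 989.5 CPM in late G1 against 330.5 and 533 CPM in asynchronous cells (log2 change 1.17 ± 0.21, adjusted p = 0.00305), and the demethylating enzyme Tet2 with 134 and 127 CPM in late G1 against 60.8 and 28.6 CPM in asynchronous cells (log2 change 1.54 ± 0.31, adjusted p = 0.00458). Trim28, a co-repressor that protects imprints, rose by 0.85. Dnmt1, the maintenance enzyme, did not pass the test (log2 change -0.24 ± 0.15, adjusted p = 0.226). Dnmt1 was called without asynchronous replicate 2 (log2 change -0.411, adjusted p = 0.0111), and over all alternatives its adjusted p ran from 0.0111 to 0.803. Of 28 histone acetylation genes 12 were called higher and 3 lower, with a median of 0.28. Yy1, a DNA-binding factor that recruits such enzymes, rose by 1.19, the acetyltransferase Kat2b by 1.10 and the deacetylase Hdac2 by 0.72, and Hdac7 and Hdac11 fell by 2.33 and 2.42. The DNA methylation list had 6 called higher without late G1 replicate 1 and 6 without late G1 replicate 2, and 1 called lower without late G1 replicate 1 and 1 without late G1 replicate 2. The acetylation list had 7 called higher without late G1 replicate 1 and 6 without late G1 replicate 2, and 6 called lower without asynchronous replicate 2.

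Cohesin and condensin genes were called in both directions, with 9 of 25 called higher, 7 lower and a median of 0.29. Over all genes tested 22.7% were called higher and 26.0% lower, so the share called lower was near that over all genes. Rad21, the cleavable ring subunit of cohesin, had 477 and 480.5 CPM in late G1 against 269.6 and 144 CPM in asynchronous cells (log2 change 1.21 ± 0.26, adjusted p = 0.00595), Ncapg2, of condensin II, rose by 1.33, and Esco1, which acetylates cohesin, by 0.91. Rec8, the meiotic counterpart of Rad21, was lower, with 10.8 and 8.68 CPM in late G1 against 42.2 and 51.4 CPM in asynchronous cells (log2 change -2.26 ± 0.18, adjusted p = 0.000102). The cohesin and condensin list had 3 called higher without late G1 replicate 1, 3 without late G1 replicate 2 and 14 without asynchronous replicate 1, and 2 called lower without late G1 replicate 1 and 2 without late G1 replicate 2, and a median of 0.646 without asynchronous replicate 1 and -0.104 without asynchronous replicate 2. Replication-dependent histone transcripts mostly end without the poly(A) tail that the library kit selects. Of 28 such genes 5 were called higher and 8 lower, shares near those over all genes tested, with a median of -0.40. The named falls were at low counts, with 0.365 and 0.235 CPM in late G1 against 1.43 and 1.93 CPM in asynchronous cells for Hist1h1b and a log2 change of -2.54 ± 0.54 for Hist1h4h and -1.30 ± 0.35 for Hist3h2ba. The Hist1h4h call was lost without late G1 replicate 2 (adjusted p = 0.0565), and over all alternatives its adjusted p ran from 2.91e-06 to 0.0565. The Hist3h2ba call was lost without late G1 replicate 1, late G1 replicate 2 or asynchronous replicate 2 (adjusted p = 0.0994, 0.0914 and 0.0549), and over all alternatives its adjusted p ran from 0.00588 to 0.0994. The histone list had 3 called higher without late G1 replicate 1 and 8 without asynchronous replicate 2, and 2 called lower without late G1 replicate 1, 1 without late G1 replicate 2 and 3 without asynchronous replicate 2, and a median of -0.164 without late G1 replicate 2, -0.81 without asynchronous replicate 1 and 0.216 without asynchronous replicate 2. DESeq2 called 3 histone genes lower. With a minimum count of 50 only 4 were tested, of which 3 were called higher and 0 lower, with a median of 1.13. The 28 tested histone genes summed to 89.15 and 90.72 CPM in late G1 against 46.11 and 69.31 CPM in asynchronous cells.

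Genes of the cytoskeleton, of adhesion and of the interferon response were described by 3 lists. On the actin list 11 of 30 members were called higher and 12 lower, with a median of -0.13. The actin crosslinker Actn4 (1.83) and the transcription factor gene Srf (1.69) rose, and Thbs1, a matrix glycoprotein (-4.09), Tpm2, a tropomyosin (-2.71), and Acta2, smooth muscle actin (-4.47), fell. Acta2 had 6.52 and 2.58 CPM in late G1 against 75.5 and 126 CPM in asynchronous cells (log2 change -4.47 ± 0.46, adjusted p = 0.000272). The actin list had 6 called higher without late G1 replicate 1. Of 22 integrins and cadherins 6 were called higher and 6 lower, shares near those over all genes tested, with a median of -0.29. The rises included Itga9 (1.53), Itga6 (0.95) and Itga3 (0.75), and the falls Itga11, a collagen receptor of fibroblasts, with 0.319 and 0.375 CPM in late G1 against 27.8 and 22.1 CPM in asynchronous cells (log2 change -6.15 ± 0.36, adjusted p = 4.16e-05), Cdh11, a mesenchymal cadherin (-3.50), and Cdh3, placental cadherin (-0.87). The Cdh3 call was lost without late G1 replicate 2 (adjusted p = 0.0565), and over all alternatives its adjusted p ran from 5.99e-11 to 0.0565. The integrin and cadherin list had 3 called lower without late G1 replicate 1 and 2 without late G1 replicate 2, and a median of -0.158 without asynchronous replicate 1. On the interferon and MHC class I list 4 of 23 were called higher and 10 lower, with a median of -0.57. The MHC gene H2-K1 had 16.9 and 15.7 CPM in late G1 against 63.8 and 65.8 CPM in asynchronous cells (log2 change -1.99 ± 0.21, adjusted p = 0.000306), the tethering factor gene Bst2 fell by 1.60, and the immunoproteasome gene Psmb8 by 3.46. The interferon and MHC list had 2 called higher without late G1 replicate 1 and 2 without late G1 replicate 2, and 6 called lower without late G1 replicate 1. The part of fibroblast or macrophage RNA in these falls was not tested.

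Outside the lists, the largest rises were genes that were nearly silent in asynchronous cells. Synpo2l, an actin-associated protein of muscle, had 11.3 and 12.6 CPM in late G1 against 0.398 and 0.304 CPM in asynchronous cells (log2 change 5.05 ± 0.37, adjusted p = 7.89e-05). Nt5e, the ectoenzyme CD73 that makes adenosine, had 10.3 and 8.73 CPM in late G1 against 0.597 and 0.456 CPM in asynchronous cells (log2 change 4.14 ± 0.34, adjusted p = 0.000117), and Fam196a and Tgm3, a transglutaminase, rose by 4.36 and 4.02. Among rises from at least 10 CPM in both asynchronous libraries, Porcn, the acyltransferase that prepares Wnt proteins for secretion, had 71.7 and 66.3 CPM in late G1 against 11.3 and 14.2 CPM in asynchronous cells (log2 change 2.44 ± 0.16, adjusted p = 6.64e-05), and Gja1, the gap junction protein connexin 43, had 104 and 97.1 CPM in late G1 against 16.5 and 20.8 CPM in asynchronous cells (log2 change 2.43 ± 0.15, adjusted p = 4.8e-05). Dido1, a chromatin protein, rose by 2.32, Tmtc3, a protein of the endoplasmic reticulum, by 2.35, and the imprinted gene Mest by 2.48, with 30.2 and 10.5 CPM in the asynchronous replicates.

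Of the 8 largest falls that met the naming rule, Lyz2, Col3a1, Postn and Col1a1 are given above, and the others were Ccdc80 (-6.68), Col8a1 (-6.61), Bgn, biglycan (-6.48), and the collagen gene Col1a2 (-7.50), of which Col1a2 is on the fibroblast list. Of the 8 largest falls among genes that kept 10 CPM or more in late G1, Bnip3, P4ha2, Ndrg1 and Lefty1 are given above. Cyba, a subunit of NADPH oxidase, had 11.3 and 10.8 CPM in late G1 against 145 and 248 CPM in asynchronous cells (log2 change -4.15 ± 0.26, adjusted p = 5.32e-05). Bhlhe40, a hypoxia- and clock-linked repressor, had 29.2 and 25.7 CPM in late G1 against 425 and 344 CPM in asynchronous cells (log2 change -3.81 ± 0.18, adjusted p = 2.28e-05), and Neat1, the long non-coding RNA that builds paraspeckles, had 24.7 and 24.4 CPM in late G1 against 289 and 308 CPM in asynchronous cells (log2 change -3.60 ± 0.13, adjusted p = 9.61e-06). Fxyd6, a regulator of the sodium pump, had 11.1 and 11.7 CPM in late G1 against 123 and 135 CPM in asynchronous cells (log2 change -3.50 ± 0.17, adjusted p = 2.19e-05). In all 4 genes both late G1 libraries lay below both asynchronous ones by far more than the replicates differed.

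Transcripts of Y-linked genes were counted in both states of these male cells. None of 6 tested Y-linked genes was called, at a median of -1.06 (0 higher and 0 lower by edgeR, 0 by DESeq2, 1, Uty, at an unadjusted p under 0.05, and 5 lower with no filter on low counts). Eif2s3y had 29.6 and 32.5 CPM in late G1 against 91.6 and 28.4 CPM in asynchronous cells (log2 change -0.95 ± 0.56, adjusted p = 0.19), and asynchronous replicate 1 stood apart from the other 3 libraries. The tested Y-linked genes summed to 55.8 and 59.0 CPM in late G1 against 171 and 46.6 CPM in asynchronous cells, and mitotic replicate 1, at 148 CPM, stood apart as well. The Y-linked list had 3 called lower without asynchronous replicate 2, and a median of 0.64 without asynchronous replicate 1 and -1.9 without asynchronous replicate 2. Xist, the RNA of the inactive X, had 7.34 and 6.76 CPM in late G1 against 4.78 and 4.06 CPM in asynchronous cells (log2 change 0.67 ± 0.26, adjusted p = 0.0635), so low amounts were present in both states. Xist was called without asynchronous replicate 1, mitotic replicate 1 or mitotic replicate 2 (log2 change 0.801, 0.679 and 0.679, adjusted p = 0.0482, 0.025 and 0.0259), and over all alternatives its adjusted p ran from 0.000605 to 0.22.

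Values for the other states are given beside those of late G1. The mitotic and early G1 libraries were set against the same asynchronous libraries, so the values that follow share their controls and are given side by side only. The median of the glycolysis and hypoxia list was -1.71 at the arrest, -1.65 at 1 h after release (early G1) and -1.59 at 3 h (late G1). The feeder fibroblast list stood at -4.22, -3.89 and -4.77, and the ERK list at 0.91, 1.51 and 1.38. The G1 to S list stood at 0.11, 0.39 and 0.44, the G2 and M list at 0.07, -0.07 and -0.30, and the tubulins at -0.32, -0.71 and -0.85. By sum the tubulins were lowest at the arrest, with 2151 and 2168 CPM. They summed to 3104 and 2939 CPM in early G1, 2517 and 2544 CPM in late G1 and 5096 and 6683 CPM in asynchronous cells. The genes of the two-cell-like list were at 0.77, -1.52 and -0.83. Between late G1 and early G1, 0 of 19101 genes were called by edgeR in the fit of all 8 libraries, 724 had an unadjusted p under 0.05, and DESeq2 called 27. With only those 4 libraries fitted, 1493 of 17696 genes were called. Differences from asynchronous cells given here are therefore not shown to be particular to late G1.

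**Figure D5:**
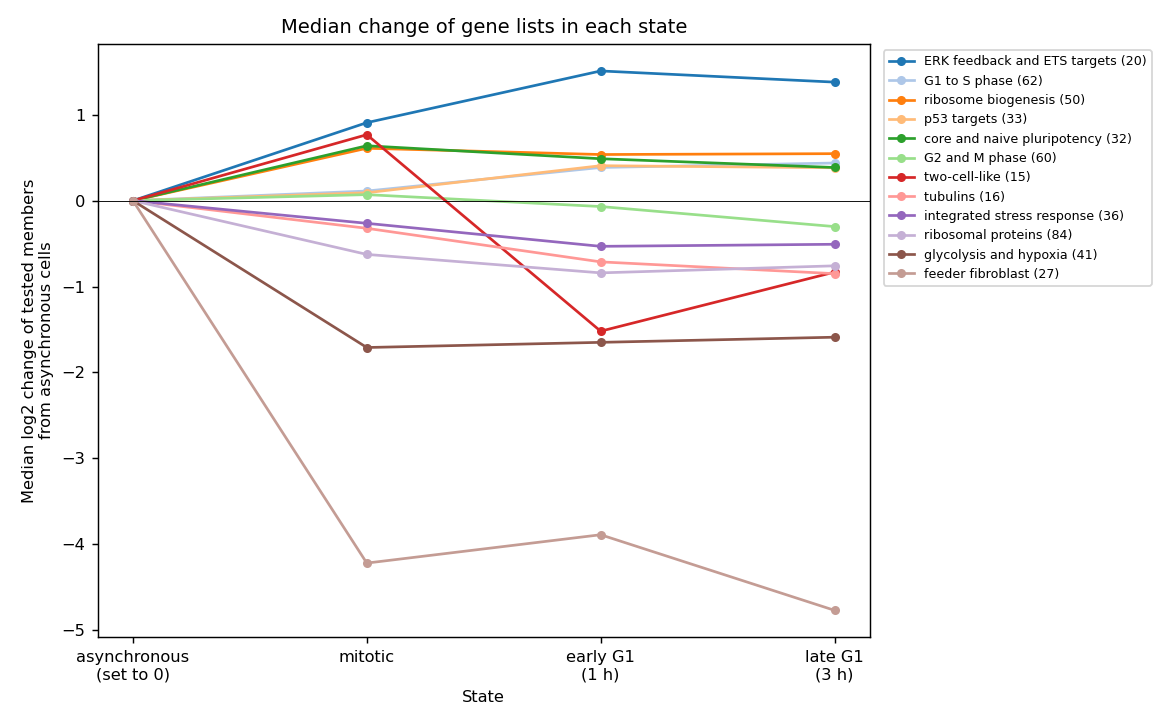
Median log2 change of the tested members of 12 gene lists from asynchronous cells (set to 0) at each state of the series, with the number tested beside each name. The feeder fibroblast list ends at -4.77 and the glycolysis and hypoxia list at -1.59 in late G1, below the others, and the ERK list at 1.38 above them.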

How the data were processed

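The table that the authors deposited holds raw counts for 54838 Ensembl genes in 8 libraries, as whole numbers. RNA was sequenced as single reads of 50 bases from libraries of a stranded poly(A) kit, per the labels' protocols. Per the submitters' processing notes, the build was mm10 and the tools were TopHat2, SAMtools and HTSeq, with no versions or settings given. Neither the annotation release nor the strand setting behind the counts is stated in the labels, so antisense and overlapping genes are uncertain. The RNA extraction described in the labels names asynchronous cells only. Symbols and 1-based coordinates came from GENCODE M21 (GRCm38), which matched 54809 IDs (99.9%).

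The analysis used edgeR 4.0.16 under R 4.3.3. The filter filterByExpr at a minimum count of 10 kept 19101 genes, and TMM set the scaling. All 8 libraries entered the quasi-likelihood fit (two-sided, robust dispersion, 4 residual degrees of freedom). The fit took the same spread per gene for all states, although the pairs were not alike. The biological coefficient of variation was 0.0417 in late G1, 0.0506 in early G1, 0.183 in mitotic and 0.292 in asynchronous cells. The p-values may therefore understate the spread among asynchronous cells. The SE of a log2 change is its size divided by the square root of the F statistic. A floor of 3 counts covers counting error alone, because reads lacking molecular identifiers are not independent. On simulated data of 15566 genes the test called 58 of 100 genes changed 2-fold and 96 of 100 changed 4-fold, with 10 false calls. The simulation gave all states the same spread per gene, whereas the asynchronous libraries differed far more than the late G1 ones. It also changed far fewer genes than were called in the data. These rates may therefore not hold for the data. Alternatives changed the scaling, the filter, the libraries fitted, the replicate block and the tool (DESeq2 1.42.0). Ranges given over all alternatives include fits that left a single library in a state, where that state adds no spread. Some fits that kept both libraries of each state used also gave far smaller adjusted p than the main fit. For Cyp1a1 the edgeR adjusted p was 6.7e-76 with no filter on low counts, against 2.8e-05 in the main fit. With the replicate block in the 4 libraries it was 3.01e-49. The low ends of these ranges are not taken as stronger support.

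The members and the gene lists were chosen with earlier results of these data known. Named genes were the 8 largest rises and falls among called genes (average log2 CPM 2 or more, groups not overlapping), the 8 largest of each direction that kept or started from 10 CPM, the 3 called members of each list with the smallest p in its majority direction, and 13 genes taken whatever their values. Other members of the lists were named after their values were seen. Some genes that met the rule are not reported here. Lists are described by counts and medians and were not tested as sets.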

Additional observations from a re-analysis of the deposited data

How the results depend on the processing

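The number of genes called ranged from 7913 to 11932 under other scaling, filters, DESeq2, the replicate block and a model term shared by mitotic replicate 1 and asynchronous replicate 1, against 9305. With the late G1 and asynchronous libraries fitted alone, 6469 genes were called, 2854 of them higher. Leaving out replicate 1 of both mitotic and asynchronous cells gave 13664 calls, 6742 of them higher and 6922 lower. Leaving out a single library gave between 5096 (late G1 replicate 1) and 11489 (asynchronous replicate 1) calls in all, between 2395 and 5662 higher, and between 2700 and 5827 lower, and 5166 without late G1 replicate 2. Some smaller fits called more genes than the main fit and others fewer, and the cause of these shifts was not tested. DESeq2 called 8815 genes, of which 8539 were shared. The replicate numbers were not taken as pairing the samples. The deviations of same-numbered libraries correlated at 0.0442 between late G1 and asynchronous cells, at 0.621 between mitotic and asynchronous cells and at -0.345 between early G1 and asynchronous cells, over 12254 genes. With the replicate block 9430 genes were called in all 8 libraries and 7926 in the 4. Without replicate 1 of mitotic and asynchronous cells Pou5f1 changed sign (-0.145), as did Ier2 (-0.18). Scaling moved the median of all genes by less than 0.1. Depth limits genes near 0.116 to 0.152 CPM, the level of 3 counts.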
